A study of Homo sapiens with 8 samples.

Results

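The 104 genes described here are the protein-coding genes at the far end of the long arm of chromosome 3, called distal 3q genes below. They were taken from a table of 58336 genes by 3 conditions: a start at or beyond 170 Mb on chromosome 3 in hg38, at least 50 counts summed over the 8 libraries, and not one of the genes left out by name or family. The table holds 170 protein-coding genes of this region. Of these, 57 had under 50 counts (27 had none), and 9 were left out: TP63, ZMAT3, CLDN1, HES1, TFRC, ETV5, RPL22L1, RPL35A and NDUFB5. All 104 that remained passed the filter on low counts used for the fit. They lie between positions 170037929 and 198043720 of chromosome 3. The genes were chosen by position and by summed counts, in a region proposed when log2 fold changes between the groups of this study were already known. The contrast that led to it is not recorded. Both comparisons against ITGB4-high cells were therefore counted as used in the choice, and their values are given as a description without p-values. Whether lung-recovered over ITGB4-low cells also guided the choice is not known. Its p-values are printed, but they may not be free of that choice.

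Distal 3q is known in tumour biology because it is often gained in squamous cancers and in basal-like breast cancers. Genes studied there as possible drivers include PIK3CA, which encodes the catalytic subunit of a lipid kinase acting downstream of growth factor receptors, PRKCI, which encodes an atypical protein kinase C of cell polarity, and ACTL6A, which encodes a subunit of the BAF chromatin remodelling complex. Gains or losses of an arm change the level of many of its transcripts together, while single genes of the arm also answer to their own promoters and regulators.

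The measurements are counts of reads per gene from poly(A) RNA sequencing of SUM159, an established human breast cancer line of the triple-negative, mesenchymal-like type. The lung-recovered group (3 libraries) came from ITGB4-low clone 1 cells that had been injected into the tail vein of mice. Bleomycin, which injures lung tissue, was given to those mice by the trachea. After dissociation of the lungs the cells spent a night in culture, and tumour cells were then sorted for tdTomato, a red fluorescent label. The ITGB4-low group (3 libraries) was the same clone 1 grown in dishes, and the ITGB4-high group (2 libraries) was SUM159 cells with high ITGB4 grown in dishes. Every ITGB4-low and lung-recovered library thus goes back to 1 clone, so what belongs to that clone and what belongs to low ITGB4 cannot be told apart. The lung-recovered group differs from the dish-grown clone in passage through the mouse, bleomycin, dissociation and sorting, all at once. The labels name biological replicates without the culture or animal of each, so the p-values refer only to the spread among these libraries, which may be technical.

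The libraries held 20.41 to 27.22 M counts. ITGB4, the integrin subunit that names the groups, had 375.5 to 406.9 CPM (counts per 1e6 counts of a library, after TMM, edgeR's scaling for library composition) in lung-recovered libraries, 5.29 to 9.13 CPM in ITGB4-low libraries and 376.4 to 419.9 CPM in ITGB4-high libraries. The lung-recovered libraries, although labelled as cells of ITGB4-low origin, therefore had ITGB4 at the level of ITGB4-high cells. VIM, a mesenchymal filament gene, had 4261 to 5024 CPM over the 8 libraries. CDH1 and PGR had 0 counts, and EPCAM and ESR1 had 6 and 7 counts in all. ERBB2, the other receptor gene looked at, was present in every library, at 63.4 to 71.6 CPM. Of 5 macrophage and myeloid markers, none was at 0 throughout, and their summed level was 5.67 to 6.58 CPM in lung-recovered, 5.19 to 5.88 CPM in ITGB4-low and 2.77 to 3.51 CPM in ITGB4-high libraries. The lymphocyte marker CD3E and the airway marker SCGB1A1 had 0 counts. Another lung epithelium marker, AGER, had 155 counts in all, at 0.602 to 1.13 CPM. The macrophage sum was lower in ITGB4-high libraries. Most of it was CD68, with means of 4.93, 4.19 and 2.72 CPM in lung-recovered, ITGB4-low and ITGB4-high cells. PTPRC had 0.781, 0.864 and 0 CPM in the same groups. CD14 went the other way, with 0.109, 0.0642 and 0.305 CPM. Reads were aligned to hg38, so these human markers may not measure host cells of the mouse. The part of the macrophage markers in the results below was not tested. In bulk libraries, fewer cells that express a gene and less RNA of it per cell cannot be told apart.

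Distal 3q genes as a group were lower in both groups of clone 1 cells than in ITGB4-high cells; the median gene had a fold of 0.81 in lung-recovered and 0.77 in ITGB4-low cells. They took 0.802, 0.798 and 0.796% of all counts in the lung-recovered libraries, 0.825, 0.797 and 0.813% in the ITGB4-low libraries, and 0.993 and 1.01% in the ITGB4-high libraries. The values of the lung-recovered and ITGB4-low libraries overlap, and both ITGB4-high libraries lie above all 6 others. Each library can also be given a score, the median over the 104 genes of the log2 deviation from the mean of the 3 groups. This score was -0.06, -0.10 and -0.09 in lung-recovered libraries, -0.11, -0.17 and -0.13 in ITGB4-low libraries, and 0.22 and 0.23 in ITGB4-high libraries. The SD of the score within groups was 0.0225. For all 12475 protein-coding genes tested, the same score lay between -0.01 and 0.01 in every library.

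**Figure D1:**
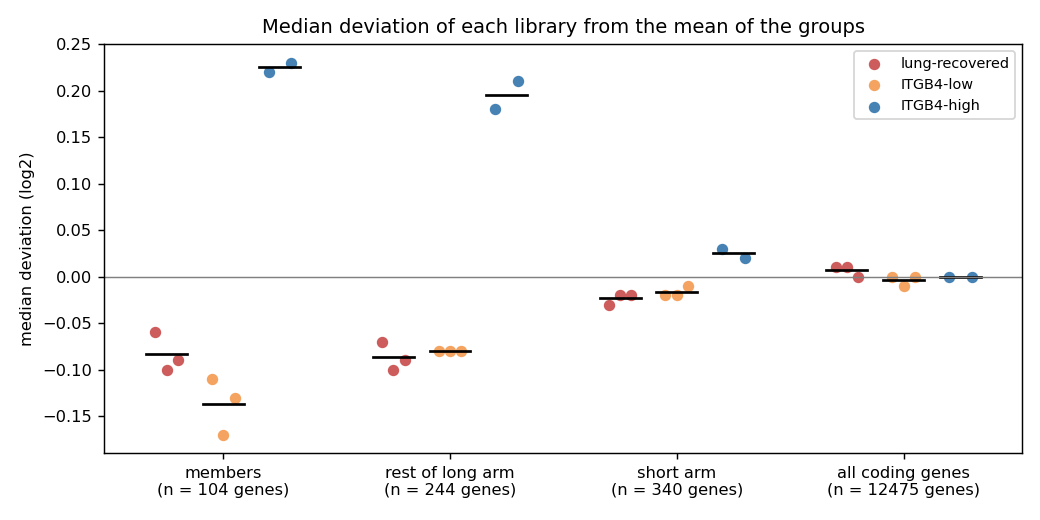
Median log2 deviation of each library (points) from the mean of the 3 groups, with the group mean as a line, for the distal 3q genes, the rest of the long arm (start 90 to 170 Mb), the short arm (start below 90 Mb) and all protein-coding genes tested. The ITGB4-high libraries stand at 0.22 and 0.23 for the distal 3q genes and at 0.18 and 0.21 for the rest of the long arm, and within 0.03 of 0 in both other sets.

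In ITGB4-low cells over ITGB4-high cells, 72 of the 104 genes were called lower, at an adjusted p under 0.05 in edgeR's quasi-likelihood test, against 27.6% of all genes tested. Another 14 were called higher, against 28.6% of all genes, and 18 were not called. The median log2 fold change was -0.38, with quartiles of -0.61 and -0.12, and 86 of 104 values were below 0. Over all 15220 genes tested the median was 0.00. In 77 genes every ITGB4-low library lay below both ITGB4-high libraries (33.9% of all genes), in 16 every one lay above (34.8%), and in 11 the libraries overlapped. Since the region was chosen with such differences in view, these shares describe the genes and support nothing further. The shift was small per gene: 59 of the 104 changed by less than 0.5 on the log2 scale in either direction, and 14 by 1 or more (14.1% of all genes), 6 of them higher and 8 lower.

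In lung-recovered cells over ITGB4-high cells, 68 genes were called lower (25.0% of all genes tested) and 15 higher (26.2%). The 15 became 9 without ITGB4-high replicate 2. The median log2 fold change was -0.31, with quartiles of -0.50 and -0.06, and 83 of 104 values were below 0. Over all genes the median was 0.01. This comparison shares the ITGB4-high libraries with the one before it, so its values stand beside those and add no independent count. In 71 genes all lung-recovered libraries lay below both ITGB4-high libraries (32.6% of all genes), and in 17 all lay above (34.2%).

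The shift ran along most of the region but did not start at its edge. Over the 244 tested protein-coding genes that start between 90 and 170 Mb, the rest of the long arm, the median log2 fold change was -0.28 in ITGB4-low over ITGB4-high cells and -0.28 in lung-recovered over ITGB4-high cells. Over the 340 genes that start below 90 Mb, the short arm, it was -0.04 and -0.06. At the 170 Mb bound, MYNN and SEC62, the last genes outside, had log2 fold changes of -0.48 and -0.17 in ITGB4-low over ITGB4-high cells, and GPR160 and PHC3, the first inside, had 2.43 and -0.61. At the bound on counts, ATP13A4 (40 counts) and UTS2B (45) fell just outside, and CRYGS (61), CLDN16 (62) and MAP6D1 (65) just inside.

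Within the region, the medians of 5 Mb stretches varied. The 11 genes in the first 5 Mb had a median of -0.06 in ITGB4-low over ITGB4-high cells, with 4 called lower and 5 higher. The 9 genes in the next 5 Mb, up to 180 Mb, had -0.44, the 28 from 180 to 185 Mb had -0.39, and the 20 from 185 to 190 Mb had -0.11. The 10 genes from 190 to 195 Mb had -0.42 and the 26 from 195 Mb to the end had -0.47. In the stretches with more than 20 genes few went the other way: 24 of the 28 genes from 180 to 185 Mb were called lower and 1 higher, and 20 of the last 26 were called lower and 1 higher. Of the 10 genes from 190 to 195 Mb, 7 were called lower and 2 higher. In lung-recovered over ITGB4-high cells the medians of the 6 stretches, in the same order along the arm, were 0.16, -0.33, -0.36, -0.11, -0.24 and -0.45. No test of a difference between stretches was made.

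Set beside the rest of the genome, the far end of chromosome 3 was low but not the lowest. Of 231 stretches of 10 Mb with at least 20 tested protein-coding genes, the one from 190 to 200 Mb of chromosome 3 ranked the 3rd lowest in ITGB4-low over ITGB4-high cells, with a median of -0.47. The stretches from 170 to 180 Mb and from 180 to 190 Mb ranked 6th and 7th lowest, both with -0.36. The lowest stretch, on chromosome 18, had -0.67 and the next, on chromosome 11, had -0.51. In lung-recovered over ITGB4-high cells the stretches from 190, 170 and 180 Mb ranked 3rd, 6th and 11th lowest, with -0.39, -0.31 and -0.23. These ranks include genes left out of the 104 by rule. The region was chosen with such differences known, so the ranks describe it and support nothing further.

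**Figure D2:**
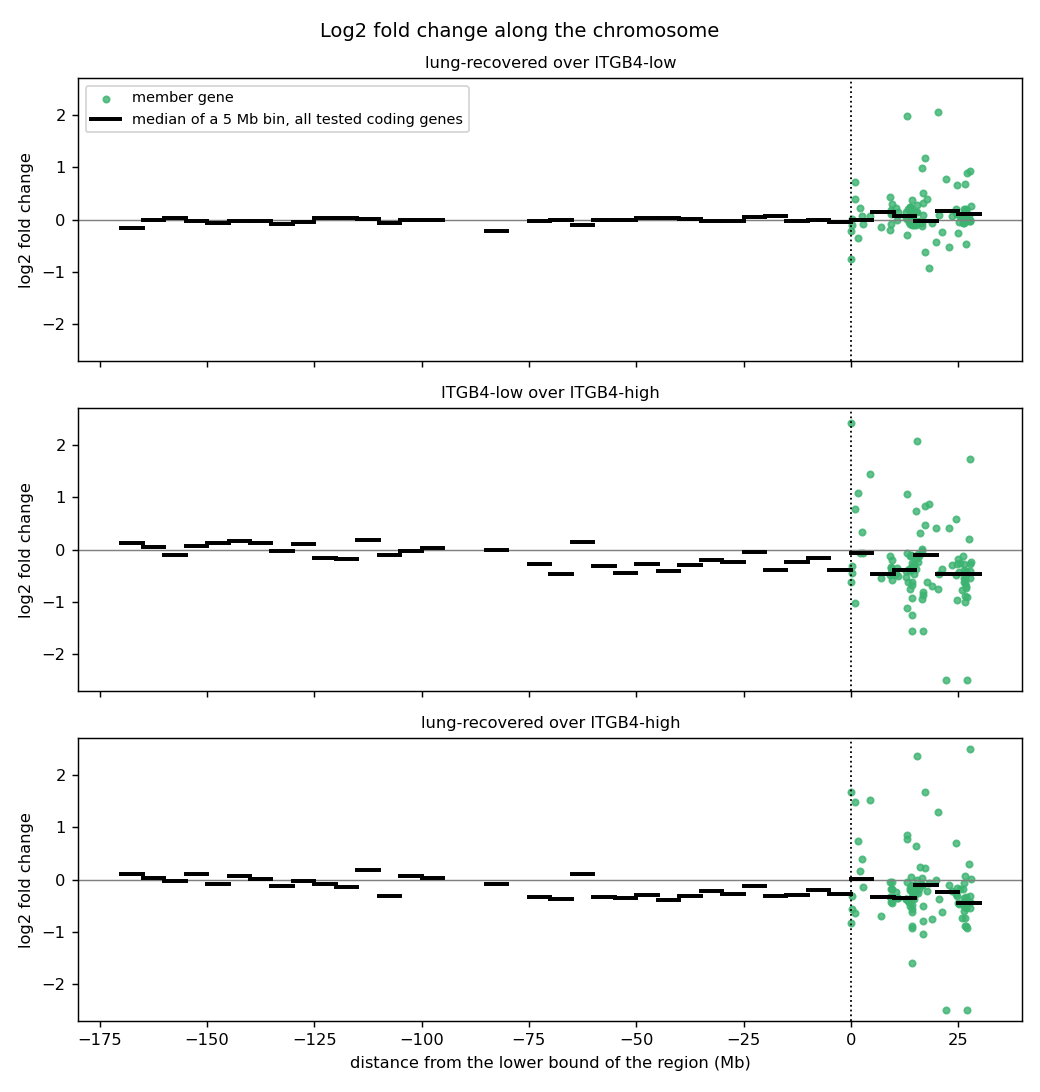
Log2 fold change in the 3 comparisons against distance from the lower bound of the region in Mb (dotted line at 0). Points are the 104 distal 3q genes, with values beyond 2.5 drawn at the edge, and bars are medians of 5 Mb stretches of all tested protein-coding genes, with stretches of few genes left blank. In both comparisons with ITGB4-high cells the bars of the long arm lie mostly below 0, on both sides of the bound, while lung-recovered over ITGB4-low bars stay near 0.

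In dish-grown cells the median was below 0 at low, middle and high levels, but at low levels the genes went both ways. In ITGB4-low over ITGB4-high cells the 20 genes averaging under 5 CPM had a median of -0.34, the 34 genes from 5 to 50 CPM had -0.40 and the 50 genes at 50 CPM or more had -0.37. Of the 20 genes under 5 CPM, 11 had a value below 0, and 5 were called lower and 7 higher. Of all 2299 protein-coding genes at that level 16.0% were called lower and 35.2% higher, with a median of 0.28. The share called higher was thus near that of the level in general. Of the 50 abundant genes, 46 had a value below 0 and 41 were called lower, and of all 4691 protein-coding genes at that level 39.1% were called lower, with a median of -0.05. In lung-recovered over ITGB4-high cells the medians were 0.24, -0.34 and -0.34. The 20 genes under 5 CPM thus went the other way there, as did protein-coding genes of that level in general, with a median of 0.32.

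**Figure D3:**
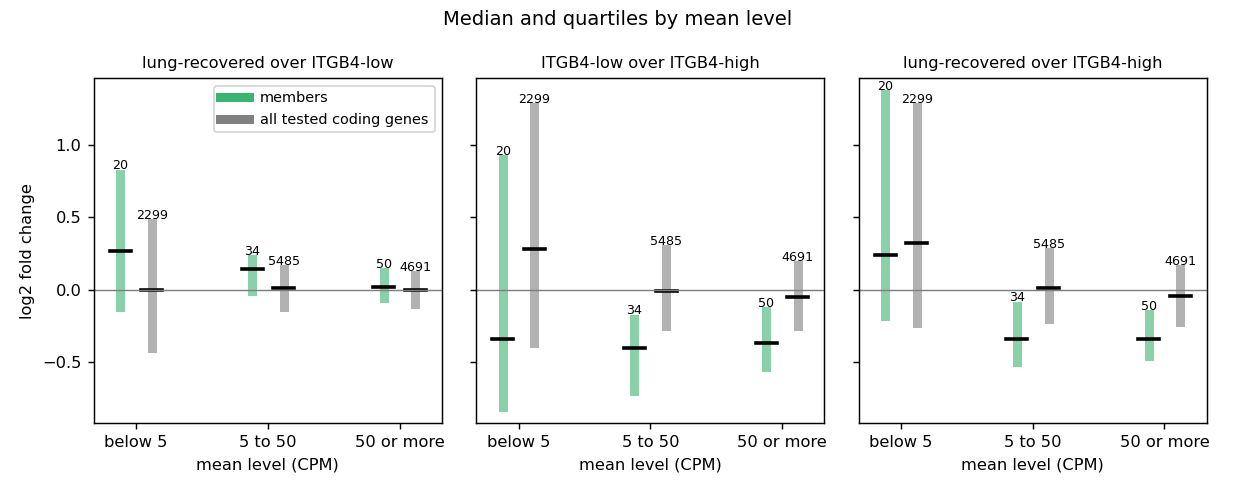
Median (black line) and quartiles (bars) of the log2 fold change in 3 classes of mean level in CPM, for the distal 3q genes (green) and all tested protein-coding genes (grey), with the number of genes above each bar. In ITGB4-low over ITGB4-high cells the medians of the distal 3q genes are -0.34, -0.40 and -0.37, each below that of all protein-coding genes in its class.

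Between lung-recovered cells and the dish-grown clone the distal 3q genes differed little as a group, and more of them were called higher than lower. In edgeR's quasi-likelihood test with Benjamini-Hochberg adjustment over all genes, 25 of the 104 rose (14.7% of all genes tested rose), 11 fell (15.4%) and 68 did not pass. The 25 became 15 when lung-recovered replicate 1 was left out, and 18 by DESeq2. The median log2 fold change was 0.07, with quartiles of -0.06 and 0.21, beside 0.00 over all genes. The changes were mostly small: 18 of the 25 rises and 7 of the 11 falls were under 0.5 on the log2 scale, and 3 genes changed by 1 or more (6.47% of all genes). All lung-recovered libraries lay above all ITGB4-low libraries in 36 genes (21.6% of all genes) and below them in 19 (21.6%). This comparison shares the ITGB4-low libraries with ITGB4-low over ITGB4-high cells, so a high or low value in those 3 libraries moves the values of both in opposite directions. The rule also left out 9 genes, 7 of which rose here. The counts of this comparison thus may not be free of the choice of genes.

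Among kinases and growth signalling genes, 2 of 14 rose and 2 fell in lung-recovered over ITGB4-low cells, with a median of -0.03. These shares lie near the 14.7% and 15.4% of all genes that rose and fell. For ITGB4-low over ITGB4-high cells, where 27.6% of all genes were called lower and 28.6% higher, 9 of the 14 were called lower and 2 higher. The counts of the lists that follow are to be read beside the same shares. PIK3CA had 62.4, 62.0 and 58.2 CPM in lung-recovered libraries, 73.7, 68.2 and 67.8 CPM in ITGB4-low libraries, and 74.2 and 79.2 CPM in ITGB4-high libraries. The 3 groups do not overlap, with lung-recovered cells lowest. It fell in lung-recovered over ITGB4-low cells by a log2 fold change of -0.20 ± 0.05 (SE; adjusted p = 0.00562, edgeR), and had -0.13 ± 0.06 in ITGB4-low over ITGB4-high cells, a call that ended under upper-quartile scaling, DESeq2, no filter, a fit of only these groups and the replicate block, and without ITGB4-high replicate 2, ITGB4-low replicate 2 or 3, or any lung-recovered library. PIK3CA overlaps KCNMB3 on the other strand, and the strand setting of the counting is not given in the sources used here.

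TNIK, a kinase that acts with the Wnt effector TCF4, was low throughout, with 2.52, 4.02 and 2.29 CPM in lung-recovered, 2.14, 1.36 and 1.81 CPM in ITGB4-low, and 1.09 and 0.974 CPM in ITGB4-high libraries. The 3 groups do not overlap, and lung-recovered replicate 2 stands above its group. It rose in lung-recovered over ITGB4-low cells by 0.72 ± 0.23 (edgeR adjusted p = 0.0248), but did not pass when ITGB4-low replicate 2 or 3 or lung-recovered replicate 2 was left out, with edgeR adjusted p-values of 0.0604 to 0.17. FNDC3B, which encodes a membrane protein with fibronectin domains, rose by 0.23 ± 0.06 (edgeR adjusted p = 0.00517), with values that overlap between the groups. The polarity kinase gene PRKCI and the kinase gene PAK2, whose product acts on the cytoskeleton below RAC and CDC42, did not pass, with 0.01 ± 0.05 and 0.03 ± 0.04. Over ITGB4-high cells the dish-grown clone had log2 fold changes below 0 for several: PRKCI had -0.32, PAK2 had -0.48, the non-receptor tyrosine kinase gene TNK2 had -0.77 and the JNK pathway kinase gene MAP3K13 had -0.38. ECT2, which encodes an exchange factor for small GTPases needed for cytokinesis, had values of 193.5 to 197.7 CPM in lung-recovered, 201.3 to 214.4 CPM in ITGB4-low and 208.2 to 224.3 CPM in ITGB4-high libraries. The dish-grown groups overlap.

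All 10 genes of the transcription, chromatin and DNA repair list were called lower in ITGB4-low over ITGB4-high cells, with a median of -0.46, and 9 of them were called lower in lung-recovered over ITGB4-high cells. In lung-recovered over ITGB4-low cells 5 rose and 1 fell. BCL6, a transcriptional repressor known from germinal centre B cells, had 94.1, 94.8 and 90.9 CPM in lung-recovered libraries, 68.5, 72.6 and 71.8 CPM in ITGB4-low libraries, and 107.2 and 109.1 CPM in ITGB4-high libraries. Lung-recovered cells lay between the other groups without overlap. BCL6 rose in lung-recovered over ITGB4-low cells by 0.39 ± 0.04 (edgeR adjusted p = 9.78e-07), beside -0.61 ± 0.05 in ITGB4-low over ITGB4-high cells.

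RFC4, a subunit of the clamp loader used in DNA replication, rose by 0.32 ± 0.06 in lung-recovered over ITGB4-low cells (edgeR adjusted p = 0.000521). Its levels were 42.2 to 48.7 CPM in lung-recovered, 34.0 to 37.5 CPM in ITGB4-low and 61.1 to 67.3 CPM in ITGB4-high libraries. ACTL6A rose by 0.13 ± 0.04 (edgeR adjusted p = 0.0255), and did not pass without ITGB4-low replicate 2 or lung-recovered replicate 1 or 3 (edgeR adjusted p from 0.079 to 0.104). TBL1XR1, which helps exchange nuclear receptor co-repressors, went the other way. It had 404.5, 414.7 and 392.6 CPM in lung-recovered, 426.5, 456.3 and 461.5 CPM in ITGB4-low, and 659.6 and 654.4 CPM in ITGB4-high libraries, so the 3 groups do not overlap and ITGB4-high cells stand far above. Its fall of -0.15 ± 0.04 in lung-recovered over ITGB4-low cells had an edgeR adjusted p of 0.011, which became 0.0523 to 0.0761 when ITGB4-low replicate 2 or 3 or lung-recovered replicate 3 was left out. SKIL, a repressor of SMAD signalling, had -0.11 ± 0.06 and did not pass (edgeR adjusted p = 0.152), although it did without ITGB4-low replicate 3 (edgeR adjusted p = 0.0404).

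Of 13 translation and RNA binding genes, 10 were called lower and none higher in ITGB4-low over ITGB4-high cells (median -0.36), and 2 rose and none fell in lung-recovered over ITGB4-low cells (median 0.08). PCYT1A, an enzyme of phospholipid synthesis, also stands in this list as written and was not called in either of these comparisons. In ITGB4-high cells the list holds the 2 most abundant transcripts per length among the 104 genes. There EIF4G1, the scaffold of the cap-binding complex, averaged 119.1 CPM per kb of exon. EIF4A2, an RNA helicase of that complex, averaged 111.1 CPM per kb. They were followed by the proteasome subunit gene PSMD2 with 93.4 CPM per kb and the clathrin adaptor gene AP2M1 with 89.5 CPM per kb. Both of these lie outside the rule for naming and were picked for their level. In lung-recovered and ITGB4-low cells EIF4A2 had 64.1 and 60.6 CPM per kb. That was below PSMD2, with 80.2 and 85.6, and AP2M1, with 71.5 and 71.2. EIF4G1 had 765.6, 776.9 and 771.0 CPM in lung-recovered, 797.7, 743.6 and 759.8 CPM in ITGB4-low, and 1016 and 950.8 CPM in ITGB4-high libraries. Its lung-recovered and ITGB4-low values overlap, and both ITGB4-high values lie above them.

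EIF4A2 showed a larger difference, with 400.8, 371.3 and 407.6 CPM in lung-recovered, 315.7, 396.6 and 402.8 CPM in ITGB4-low, and 665.6 and 697.3 CPM in ITGB4-high libraries. The ITGB4-low libraries spread widely, with replicate 1 the lowest of all 8. The log2 fold change was -0.87 ± 0.07 in ITGB4-low over ITGB4-high cells and 0.08 ± 0.07 in lung-recovered over ITGB4-low cells, which did not pass (edgeR adjusted p = 0.401). EIF4A2 and RFC4 overlap on opposite strands. EIF5A2, an isoform of the factor that carries hypusine and helps ribosomes through difficult stretches, rose by 0.39 ± 0.07 in lung-recovered over ITGB4-low cells (edgeR adjusted p = 0.000366). It had 26.4 to 26.6 CPM in lung-recovered, 18.5 to 22.9 CPM in ITGB4-low and 41.0 to 41.7 CPM in ITGB4-high libraries. EIF2B5, the catalytic subunit of the exchange factor for eIF2, rose by 0.15 ± 0.06 (edgeR adjusted p = 0.0426), a call that ended without ITGB4-low replicate 3 or lung-recovered replicate 1 or 3 (edgeR adjusted p from 0.107 to 0.267), and with all libraries under upper-quartile scaling (adjusted p = 0.0679), DESeq2 (0.0693) and the replicate block (0.0653). The RNA binding protein genes FXR1 and IGF2BP2 had -0.00 ± 0.05 and -0.04 ± 0.04 and did not pass.

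Of 10 ubiquitin, SUMO and proteasome genes, 9 were called lower and none higher in ITGB4-low over ITGB4-high cells (median -0.39), and 3 rose and 1 fell in lung-recovered over ITGB4-low cells (median 0.00). FBXO45, the F-box subunit of a ubiquitin ligase known from neural development in mice, had 60.6, 59.7 and 61.1 CPM in lung-recovered, 59.3, 52.5 and 53.4 CPM in ITGB4-low, and 111.2 and 111.1 CPM in ITGB4-high libraries. Both ITGB4-high libraries stood far above the other 6. Its log2 fold change was -1.01 ± 0.05 in ITGB4-low over ITGB4-high cells. In lung-recovered over ITGB4-low cells it had 0.14 ± 0.05 and did not pass (edgeR adjusted p = 0.0507), although the libraries of these groups do not overlap and it passed without ITGB4-low replicate 1 (edgeR adjusted p = 0.00511), by limma-voom (0.0495) and in a fit of only these groups (0.0473). SENP5, a SUMO protease gene, rose by 0.20 ± 0.05 (edgeR adjusted p = 0.00846), and the related SENP2 had -0.02 ± 0.06 and did not pass.

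Smaller changes in this list depended on the libraries and the test. The deubiquitinase gene USP13 rose by 0.15 ± 0.05 (edgeR adjusted p = 0.0256), and the adjusted p was 0.0553 to 0.0966 without ITGB4-low replicate 1 or lung-recovered replicate 1 or 2, and 0.0517 by DESeq2. DCUN1D1, whose product promotes neddylation of cullins, rose by 0.15 ± 0.05 (edgeR adjusted p = 0.0478), and did not pass when any one of the 3 ITGB4-low replicates or of lung-recovered replicates 1 and 2 was left out (edgeR adjusted p from 0.0585 to 0.176). With all libraries it also missed the threshold under upper-quartile scaling (0.0694), DESeq2 (0.0917), limma-voom (0.0565), no filter (0.0754) and the replicate block (0.0714), as adjusted p-values. DNAJB11, a co-chaperone gene of the endoplasmic reticulum, fell by 0.13 on the log2 scale (edgeR adjusted p = 0.0299). That call ended without ITGB4-low replicate 1 or 3 or lung-recovered replicate 2 or 3, with edgeR adjusted p-values of 0.0596 to 0.114, and with all libraries under DESeq2 (adjusted p = 0.0605), no filter (0.0828) and the replicate block (0.0558). DNAJB11 had 0.02 ± 0.05 in ITGB4-low over ITGB4-high cells, near 0 where most distal 3q genes were lower.

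Of 15 mitochondrial and metabolic genes, 9 were called lower and 2 higher in ITGB4-low over ITGB4-high cells (median -0.36), and 5 rose and 1 fell in lung-recovered over ITGB4-low cells (median 0.07). ST6GAL1, which adds sialic acid to N-linked glycans in the Golgi, had 81.5, 79.3 and 80.7 CPM in lung-recovered, 56.9, 57.0 and 55.9 CPM in ITGB4-low, and 167.2 and 164.8 CPM in ITGB4-high libraries. The 3 groups are tight and do not overlap. ST6GAL1 rose in lung-recovered over ITGB4-low cells by 0.51 ± 0.04 (edgeR adjusted p = 1.87e-08), and its log2 fold change was -1.55 ± 0.05 in ITGB4-low and -1.04 ± 0.05 in lung-recovered over ITGB4-high cells. MRPL47, a protein gene of the large mitochondrial ribosome subunit, rose by 0.29 ± 0.05 (edgeR adjusted p = 0.000189), and it overlaps ACTL6A on the other strand. OPA1, which fuses inner mitochondrial membranes, had 0.07 ± 0.04 and did not pass. XXYLT1, which extends xylose on EGF repeats of Notch, fell by 0.26 on the log2 scale (edgeR adjusted p = 0.00477).

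Metabolic genes also held some of the exceptions to the shift. EHHADH, a bifunctional enzyme of peroxisomal beta-oxidation, had 16.2 to 17.5 CPM in lung-recovered, 16.9 to 19.7 CPM in ITGB4-low and 10.6 to 10.9 CPM in ITGB4-high libraries. NCEH1, a neutral cholesterol ester hydrolase, had 101.0 to 103.8, 95.7 to 100.1 and 76.6 to 78.9 CPM in the same 3 groups. Both were higher in each lung-recovered and ITGB4-low library than in either ITGB4-high library. BDH1, a mitochondrial enzyme of ketone body use, had a log2 fold change of 0.30 ± 0.09 in lung-recovered over ITGB4-high cells.

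Of 14 genes of membrane traffic, transport and junctions, 12 were called lower and 1 higher in ITGB4-low over ITGB4-high cells (median -0.39), and 2 rose and 2 fell in lung-recovered over ITGB4-low cells (median -0.01). LPP, a LIM protein of focal adhesions and cell junctions, was the exception of the list. It had 273.8, 309.5 and 255.1 CPM in lung-recovered, 599.4, 486.2 and 503.2 CPM in ITGB4-low, and 290.7 and 290.2 CPM in ITGB4-high libraries. All 3 ITGB4-low libraries lie above the rest, and lung-recovered and ITGB4-high libraries overlap. LPP fell in lung-recovered over ITGB4-low cells by a log2 fold change of -0.92 ± 0.07 (edgeR adjusted p = 2.41e-09), the largest fall among distal 3q genes that passed, and had -0.06 ± 0.08 over ITGB4-high cells.

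DLG1, a scaffold of epithelial polarity and junctions, had another layout, with the ITGB4-high libraries apart. It had 97.3, 91.0 and 95.3 CPM in lung-recovered, 94.9, 95.7 and 98.4 CPM in ITGB4-low, and 170 and 188.8 CPM in ITGB4-high libraries. The lung-recovered and ITGB4-low libraries overlap, at -0.03 ± 0.05 (edgeR adjusted p = 0.729), and both lie far below ITGB4-high, at -0.92 ± 0.05 and -0.90 ± 0.05. The chloride channel gene CLCN2 had the same layout at 12.7 to 14.2, 12.3 to 14.4 and 25.3 to 26.3 CPM in lung-recovered, ITGB4-low and ITGB4-high libraries. ATP11B, a phospholipid flippase gene, had 0.03 ± 0.04 in lung-recovered over ITGB4-low cells and did not pass, and -0.41 ± 0.05 in ITGB4-low over ITGB4-high cells. ATP13A3, a P-type ATPase gene linked to polyamine transport, rose by 0.21 ± 0.05 in lung-recovered over ITGB4-low cells (edgeR adjusted p = 0.00383). CCDC50, an effector in EGF receptor signalling, fell by 0.24 (edgeR adjusted p = 0.0002). CLDN16, a tight junction claudin known from the kidney, rose by 2.05 ± 0.51 (edgeR adjusted p = 0.0043) on 20, 11 and 10 counts in lung-recovered, 3, 2 and 4 in ITGB4-low, and 6 and 6 in ITGB4-high libraries, and so on few reads.

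The list named for immune receptors, cytokines and secreted proteins holds 7 genes, and the name fits only some of them. As written it includes BCL6, a transcriptional repressor, the lysosomal LAMP3 and the intracellular FGF12. Of the 7, 6 were called lower and 1 higher in ITGB4-low over ITGB4-high cells (median -0.61). In lung-recovered over ITGB4-low cells 2 rose and 1 fell, with a median of 0.39. That median is the value of BCL6, which the transcription list also counts. LAMP3, a lysosomal membrane protein known from mature dendritic cells, had 38, 32 and 45 counts in lung-recovered, 9, 5 and 13 in ITGB4-low, and 28 and 18 in ITGB4-high libraries. The lung-recovered libraries are the highest of the 3 groups, without overlap. It rose in lung-recovered over ITGB4-low cells by 1.98 ± 0.32 (edgeR adjusted p = 6.38e-05). MASP1, a protease of the lectin pathway of complement, fell by 0.62 on the log2 scale (edgeR adjusted p = 0.0114), which became 0.0544 without ITGB4-low replicate 3. IL1RAP, the shared co-receptor of the interleukin-1 family, had 52.5 to 58.3 CPM in lung-recovered, 47.6 to 54.8 CPM in ITGB4-low and 69.2 to 72.0 CPM in ITGB4-high libraries, and did not pass between lung-recovered and ITGB4-low cells (0.09 ± 0.06, edgeR adjusted p = 0.27).

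Among the 104 genes, the largest differences from ITGB4-high cells were in 2 weakly expressed genes of that list. FGF12, an intracellular member of the fibroblast growth factor family that binds sodium channels, had 4, 6 and 3 counts in lung-recovered, 0, 3 and 4 in ITGB4-low, and 96 and 68 in ITGB4-high libraries. MELTF, an iron-binding surface protein named here after its values were seen, had 10, 10 and 10 counts in lung-recovered, 5, 4 and 6 in ITGB4-low, and 105 and 96 in ITGB4-high libraries. Both ITGB4-high libraries hold most of the reads of these genes, without overlap with the other 6. The log2 fold change in ITGB4-low over ITGB4-high cells was -4.84 ± 0.44 for FGF12 and -4.07 ± 0.29 for MELTF. Genes of the region that were looked for by name but had fewer than 50 counts in all were SOX2 (0 counts), TNFSF10 (3), EPHB3 (6), APOD (18) and MUC4 (31).

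**Figure D4:**
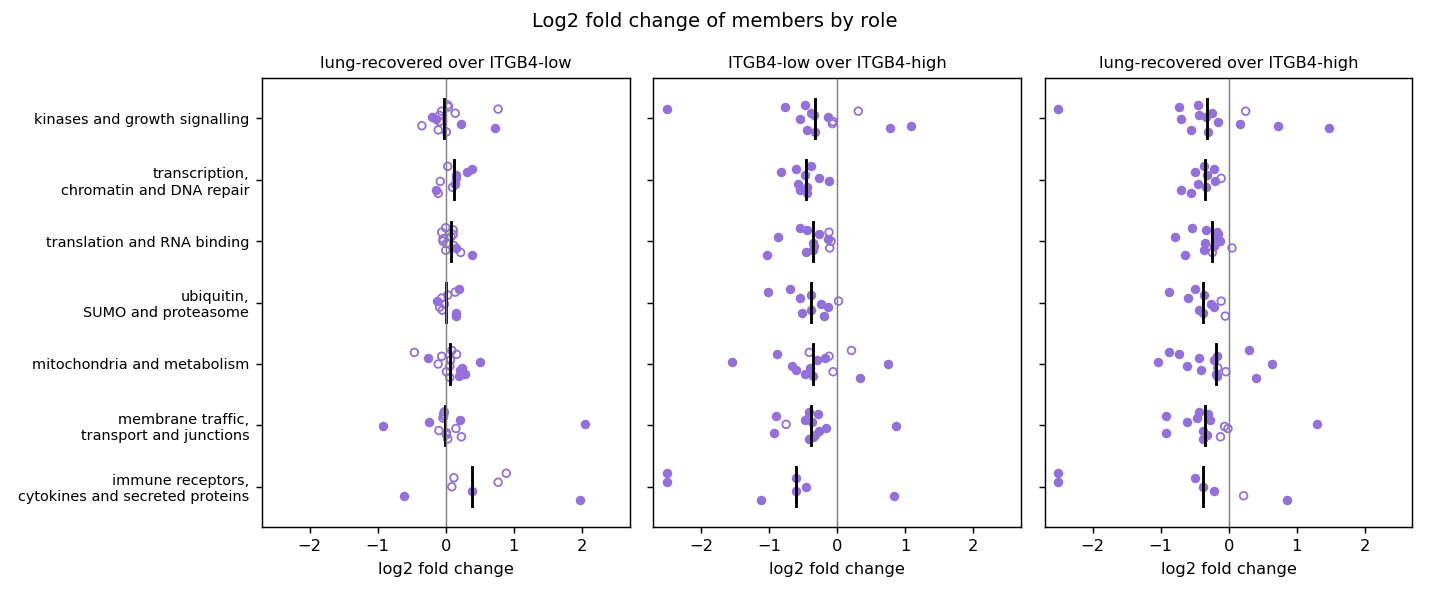
Log2 fold change of the distal 3q genes in 7 role lists (points, filled where called at an adjusted p under 0.05 in edgeR) with the list median as a bar, in the 3 comparisons, and values beyond 2.5 drawn at the edge. In ITGB4-low over ITGB4-high cells the list medians lie between -0.61 and -0.33, and in lung-recovered over ITGB4-low cells between -0.03 and 0.39.

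The 7 role lists name 16, 16, 13, 12, 15, 18 and 22 genes in the order given, some in more than 1 list, and the rest of their genes lie outside the region, fell under the count bound or were left out by rule. They cover 77 of the 104 genes, and several of the clearest departures lay among the other 27. IQCG, whose product binds calmodulin and is needed for sperm flagella in mice, had 32.7, 31.3 and 30.7 CPM in lung-recovered, 15.8, 15.3 and 18.7 CPM in ITGB4-low, and 5.02 and 4.95 CPM in ITGB4-high libraries. The 3 groups are well apart, and lung-recovered cells are the highest. IQCG rose in lung-recovered over ITGB4-low cells by 0.92 ± 0.08 (edgeR adjusted p = 1.02e-08), and had 1.74 ± 0.11 in ITGB4-low over ITGB4-high cells. Its gene body overlaps that of RPL35A, an abundant ribosomal protein gene on the other strand with 537.8, 484.7 and 839.5 CPM on average in lung-recovered, ITGB4-low and ITGB4-high cells.

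GPR160, an orphan G protein-coupled receptor gene, had 3.28, 3.83 and 3.76 CPM in lung-recovered, 5.97, 6.19 and 6.24 CPM in ITGB4-low, and 1.13 and 1.13 CPM in ITGB4-high libraries. The dish-grown clone was highest and ITGB4-high cells lowest. GPR160 fell in lung-recovered over ITGB4-low cells by a log2 fold change of -0.76 ± 0.13 (edgeR adjusted p = 0.000158). In MB21D2 and P3H2 all ITGB4-low libraries also lay above the rest, while lung-recovered and ITGB4-high libraries overlapped. MB21D2, a relative of the DNA sensor cGAS, fell by 0.53 on the log2 scale in lung-recovered over ITGB4-low cells (edgeR adjusted p = 8.34e-05). P3H2, a prolyl hydroxylase of collagens, fell by 0.42 (edgeR adjusted p = 2.74e-07), with 94.6 to 99.5, 127.9 to 135.9 and 97.4 to 98.9 CPM in lung-recovered, ITGB4-low and ITGB4-high libraries.

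FAM43A showed the opposite layout, with 21.4 to 23.4 CPM in lung-recovered, 12.6 to 15.6 CPM in ITGB4-low and 26.6 to 28.5 CPM in ITGB4-high libraries. It rose by 0.66 ± 0.08 in lung-recovered over ITGB4-low cells (edgeR adjusted p = 2.3e-06). EEF1AKMT4, which encodes a lysine methyltransferase of the elongation factor eEF1A, rose by 0.37 ± 0.11 (edgeR adjusted p = 0.0132; 0.0727 without lung-recovered replicate 3). CAMK2N2, an inhibitor of CaM kinase II that overlaps EEF1AKMT4, had 1.64 to 1.75, 1.59 to 1.89 and 4.26 to 5.84 CPM in lung-recovered, ITGB4-low and ITGB4-high libraries. TMEM44, a membrane protein gene, was higher in both groups of clone 1 cells, with 20.4 to 22.7, 18.8 to 20.6 and 13.1 to 13.3 CPM.

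**Figure D5:**
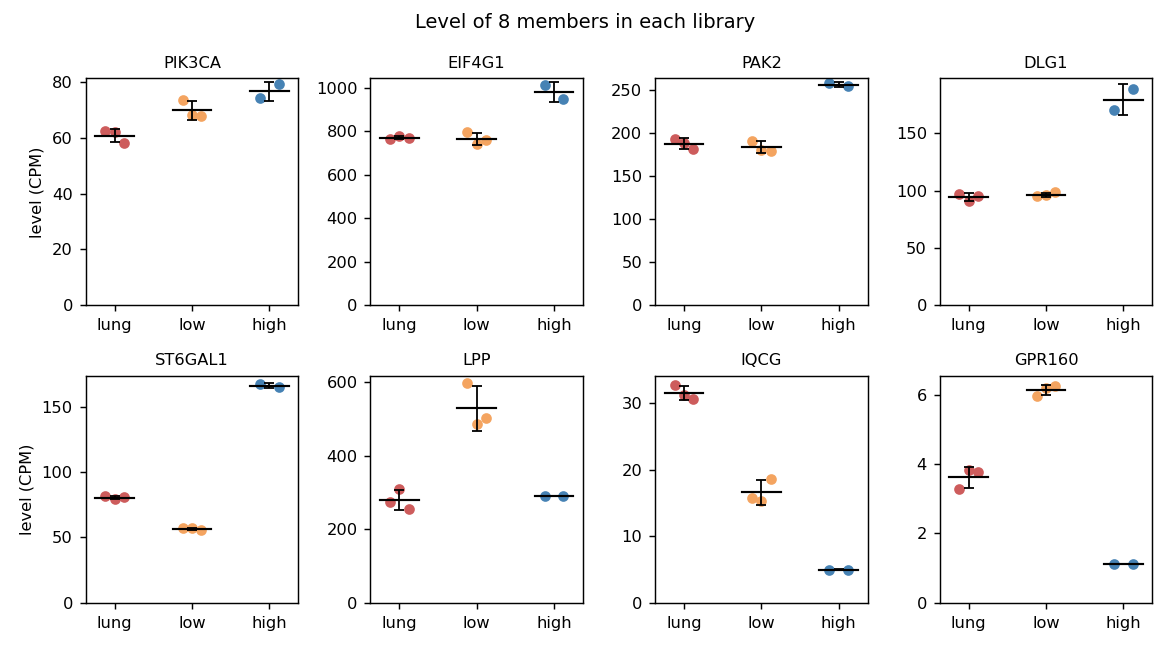
Level in CPM of 8 distal 3q genes in each library (points), with the group mean and SD, for lung-recovered (lung), ITGB4-low (low) and ITGB4-high (high) cells. EIF4G1, PAK2 and DLG1 are alike in the lung-recovered and ITGB4-low libraries and above them in ITGB4-high, ST6GAL1 lies between, LPP and GPR160 are highest in ITGB4-low and IQCG in lung-recovered libraries.

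Some distal 3q genes start close together, and 5 pairs start on opposite strands with starts within 500 bases of each other. Whether the genes of a pair share a promoter was not tested. In 4 pairs both genes were lower in ITGB4-low over ITGB4-high cells. WDR53 and FBXO45, which overlap head to head over 63 bases, had -0.56 and -1.01, and NCBP2 and NCBP2-AS2, with starts 26 bases apart, had -0.45 and -0.73. ALG3 and EEF1AKMT4 (102 bases) had -0.67 and -1.25, and CLCN2 and POLR2H (67 bases) had -0.93 and -0.26. IQCG and LMLN differed: their starts lie 58 bases apart, IQCG had 1.74 and LMLN had -0.24. In lung-recovered over ITGB4-low cells IQCG rose by 0.92 while LMLN, a metalloprotease gene, had 0.26 ± 0.10 and did not pass (edgeR adjusted p = 0.068). The partner genes in this paragraph were named by their position after their values were seen.

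Promoter sequences from RefSeq were found for 93 of the 104 genes. For these a script counted CG dinucleotides in the 300 bases from 250 before to 50 after the start, and called a promoter CpG-rich at 50% GC or more with an observed over expected CG ratio of at least 0.6. By this measure 76 of 93 distal 3q promoters (81.7%) were CpG-rich, beside 8022 of 9921 (80.9%) over all tested protein-coding genes with an entry. The median number of CG dinucleotides was 26 in both. The median log2 fold change of the 76 was -0.39 in ITGB4-low over ITGB4-high cells, with 67 below 0. The 17 others had -0.27, with 10 below 0, and 8 of these 17 had a mean level under 5 CPM.

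The 250 bases before the start are shown for 5 genes, in GRCh38.p14 on the strand of the gene, 5′ to 3′, with each CG dinucleotide in capitals. The start is the one RefSeq's table uses, which for FGF12 lies far inside the gene body that GENCODE gives, and for LPP a short way inside it. FBXO45 (chr3:196568410-196568659, plus strand) is from a pair in which both genes were lower. The start of its partner WDR53, at 196568674, lies beyond this window. LMLN (chr3:197959967-197960216, plus strand) is from the pair in which they were not, and its window holds the start of IQCG. FGF12 (chr3:192727542-192727791, minus strand) and MELTF (chr3:197029818-197030067, minus strand) are the 2 of the 104 genes with the largest differences from ITGB4-high cells. LPP (chr3:188153648-188153897, plus strand) had the largest fall in lung-recovered over ITGB4-low cells.
FBXO45: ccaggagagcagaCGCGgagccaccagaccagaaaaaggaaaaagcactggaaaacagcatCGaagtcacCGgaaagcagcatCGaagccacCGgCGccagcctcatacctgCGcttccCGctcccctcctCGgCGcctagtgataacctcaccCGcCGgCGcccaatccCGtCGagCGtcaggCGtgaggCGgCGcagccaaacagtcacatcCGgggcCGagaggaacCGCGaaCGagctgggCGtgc
LMLN: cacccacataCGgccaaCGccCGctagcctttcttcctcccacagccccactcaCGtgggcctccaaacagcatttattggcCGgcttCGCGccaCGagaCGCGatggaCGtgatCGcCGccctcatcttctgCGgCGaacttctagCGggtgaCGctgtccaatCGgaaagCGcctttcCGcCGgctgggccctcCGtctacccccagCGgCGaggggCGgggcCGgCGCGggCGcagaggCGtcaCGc
FGF12: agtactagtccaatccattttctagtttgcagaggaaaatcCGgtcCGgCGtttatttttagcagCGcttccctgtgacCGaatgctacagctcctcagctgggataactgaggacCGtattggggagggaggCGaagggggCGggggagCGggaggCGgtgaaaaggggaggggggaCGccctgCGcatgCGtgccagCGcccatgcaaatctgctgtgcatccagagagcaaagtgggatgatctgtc
MELTF: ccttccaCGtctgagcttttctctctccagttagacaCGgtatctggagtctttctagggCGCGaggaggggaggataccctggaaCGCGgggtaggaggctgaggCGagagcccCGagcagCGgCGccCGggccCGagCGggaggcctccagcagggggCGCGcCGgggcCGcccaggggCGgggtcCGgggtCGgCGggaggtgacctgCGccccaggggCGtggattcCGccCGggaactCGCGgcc
LPP: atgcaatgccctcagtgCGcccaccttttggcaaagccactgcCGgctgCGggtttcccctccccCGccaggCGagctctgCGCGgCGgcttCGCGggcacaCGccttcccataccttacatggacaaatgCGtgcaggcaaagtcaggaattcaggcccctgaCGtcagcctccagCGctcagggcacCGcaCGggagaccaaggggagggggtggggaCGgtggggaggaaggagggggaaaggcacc
These windows held 26, 31, 14, 27 and 17 CG dinucleotides, and all 5 promoters counted as CpG-rich.

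The 9 genes left out by rule lie among the distal 3q genes, and most were lower in ITGB4-low cells too. Their median log2 fold change was -0.73 in ITGB4-low over ITGB4-high cells. In lung-recovered over ITGB4-low cells 7 of the 9 rose (14.7% of all genes tested) and none fell (15.4%). Their median there was 0.28, beside 0.07 for the 104 genes, which do not include them. TP63 averaged 38.8 CPM in lung-recovered, 7.93 CPM in ITGB4-low and 141.1 CPM in ITGB4-high cells, and HES1 34.4, 10.2 and 88.2 CPM. CLDN1 averaged 194.5, 33.6 and 54.8 CPM in the same groups, and ETV5 237.3, 251.4 and 254.7 CPM.

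In these counts, 25 of the 104 genes overlap the body of another protein-coding gene, 23 of them on the opposite strand. Their reads cannot be assigned with certainty, and the values of PIK3CA, ACTL6A, MRPL47, EIF4A2, RFC4, FBXO45, WDR53, MAP3K13, IQCG, CLCN2, CAMK2N2, EEF1AKMT4, CRYGS and DNAJB11 carry that uncertainty.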

How the data were processed

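Poly(A) RNA was sequenced from 8 SUM159 libraries, with strands marked by dUTP (per the labels' protocols). What the authors deposited are whole-number counts per gene, not normalized. Per the submitters' processing notes, STAR 2.7.1a was used with hg38. For the counting program, strand setting and annotation release, nothing is stated (not given in the sources used here). Of 58336 identifiers, 58216 matched GENCODE 29, the source of symbols, types and 1-based coordinates, and 120 did not.

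Libraries were grouped by title. The members and lists were chosen with earlier results of these data known. All 8 libraries entered 1 edgeR 4.0.16 fit (R 4.3.3, TMM, filterByExpr, quasi-likelihood F test, Benjamini-Hochberg over the 15220 genes kept, which hold 99.93% of counts), with a term per group and a biological coefficient of variation of 0.0452. The fit was tested on simulated data. A gene is called at an adjusted p under 0.05. Standard errors are the log2 fold change over the root of F. Levels are CPM after TMM scaling. Comparisons with ITGB4-high cells are printed without p-values.

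The named genes are a set fixed by name, the 6 largest rises and falls per comparison at 5 CPM or more in a group, and up to 2 risen and 2 fallen genes per role list in lung-recovered over ITGB4-low cells. Genes just inside or outside the bounds of the region and others outside this rule are named as such.

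Alternatives were upper-quartile scaling, DESeq2 1.42.0, limma-voom (limma 3.58.1), no filter, fits of only 2 groups, a replicate block, leaving out each library, a minimum of 200 counts, and a region begun 5 Mb further in. Deviations of libraries with the same replicate number correlated at -0.0748 to 0.04, so the numbers do not pair libraries.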

Additional observations from a re-analysis of the deposited data

How the results depend on the processing

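No comparison reversed under the alternatives run. With upper-quartile scaling the median log2 fold change in ITGB4-low over ITGB4-high cells was -0.36 (-0.38 as reported). The median over all genes tested was 0.024 there, beside 0.001 in the main fit, so it moved the same way. The cause was not tested. With the region begun 5 Mb further in, which leaves 93 genes, 9 were called higher in ITGB4-low (14 as reported) and 9 in lung-recovered over ITGB4-high cells (15). Leaving out 1 library at a time, 15 to 27 genes rose in lung-recovered over ITGB4-low cells, 9 to 15 were called higher in lung-recovered over ITGB4-high cells, and the median there was -0.33 to -0.28. Without ITGB4-high replicate 1 or 2 the remaining library is assumed to vary like the other groups. With the replicate number as a block, 20 genes rose and 10 fell in lung-recovered over ITGB4-low cells. In that fit 14 were called higher and 66 lower in ITGB4-low over ITGB4-high cells. In lung-recovered over ITGB4-high cells 13 were called higher and 68 lower. Whether the numbers pair the libraries is not known. Over the genes named, 668 gene and setting combinations in lung-recovered over ITGB4-low cells kept direction and call, 38 lost the call and 4 gained it. Genes of few counts, such as FGF12 and CLDN16, are limited by depth.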

Other observations

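The region also holds 28 noncoding genes that passed the filter on low counts. Their median log2 fold change was -0.37 in ITGB4-low over ITGB4-high cells, with 12 called lower and 5 higher by edgeR's quasi-likelihood test. Of all genes tested, 27.6% were called lower and 28.6% higher there. The median of the noncoding genes was -0.42 in lung-recovered over ITGB4-high cells, with 13 called lower (25.0% of all genes) and 2 higher (26.2%). In lung-recovered over ITGB4-low cells it was -0.10, with 2 that fell (15.4% of all genes) and none that rose (14.7%). The region was chosen when such differences were already known, so these counts describe the genes and support nothing further.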
